A study of Arabidopsis thaliana with 2 samples.

Results

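The genes described here are the NDR1/HIN1-like (NHL) and LEA hydroxyproline-rich glycoprotein genes of Arabidopsis thaliana, measured in young leaves of a transgenic line and of wild-type plants. They were taken from the array's annotation: a gene belonged if the description of 1 of its probes named a late embryogenesis abundant hydroxyproline-rich protein, an NDR1/HIN1-like protein or a harpin-induced protein. AT3G20600, the NDR1 gene itself, was left out by that rule and YLS9 was kept. This gave 47 probes and 38 genes, of 26374 genes with a named probe on the array, and each gene was read from its brightest probe. The description of 31 of these genes had the LEA hydroxyproline-rich wording, 7 had the NDR1/HIN1 wording and 0 had the harpin-induced wording. The members lie on all chromosomes of the nucleus, with 6 on chromosome 1, 11 on chromosome 2 and 7 on each of chromosomes 3, 4 and 5.

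The transgenic plants were of the line 35S:NROB #2, a single line in the Columbia-0 background, and the wild-type plants were Columbia-0. Leaves of both were taken at day 30 of growth. 35S is a strong, widely active promoter of viral origin, and the labels do not spell out NROB. Each of 2 two-colour Agilent arrays, labelled as biological replicates 1 and 2, held both genotypes, with 35S:NROB #2 in Cy3 and wild type in Cy5. A dye effect and a genotype effect therefore cannot be told apart. The labels do not say how many plants made up a replicate. The p-values rest on the spread between these 2 arrays, which limma moderates towards that of all genes in the fit.

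NDR1 is a small plasma membrane protein of Arabidopsis that a class of intracellular immune receptors needs in order to trigger resistance, and HIN1 is a tobacco gene that is switched on by harpin, a bacterial elicitor. The NHL genes were named for their likeness to both, and several are known to be induced by pathogens or elicitors. Their proteins typically carry a hydrophobic stretch near the amino terminus and a domain shared with an atypical class of late embryogenesis abundant (LEA) proteins, which is the source of the second name. LEA proteins at large are best known from desiccating seeds.

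Leaf markers were checked first. RBCS1A, RBCS2B, CAB1, LHCA1 and PSAH2, genes of the photosynthetic apparatus, were all bright, and their log2 ratios of 35S:NROB #2 over wild type lay between -0.24 and 0.12. The seed markers OLEO1, CRA1 and GEA6 were flagged A (a deposited flag that stands on spots with a dim channel) on both arrays. So were the root hair genes RHD6, COBL9 (listed as SHV2) and EXPA7, and the flower gene AP3. GEA6 had 22.5 and 16.7 in 35S:NROB #2, against 11.7 and 7.94 in wild type, a log2 ratio of 1.00. AG, also a flower gene, was flagged P (present) on array 1 only. It had 44.6 and 58.4 in 35S:NROB #2, against 43.0 and 62.3 in wild type. SCR, also known from the root endodermis, was measured in both genotypes. In a sample of whole leaves, fewer cells of a type and less RNA per cell cannot be told apart.

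Of the 38 members, 24 were flagged P (present) on both arrays and entered a limma fit over 16955 genes. Among these 24, YLS9 was the only gene called at a limma adjusted p under 0.05, as higher in 35S:NROB #2, and 0 were called as lower. Over all genes tested, 0.236% were called as higher and 0.0118% as lower. These counts moved with the processing. After median centring, quantile normalization, averaging of probes, an offset of 50, an intensity trend in eBayes or loess, 2 to 5 of the 24 members were called as higher. Higher calls over all genes then ran from 461 to 932, against 40 as reported. Other settings changed the genes tested. With all gene probes, 5 of 38 members and 1070 of 26374 genes were called as higher. With P on at least 1 array it was 1 of 26 members and 24 of 17678 genes. Without the lower quartile of intensity it was 1 of 18 members and 234 of 12716 genes. At an unadjusted limma p under 0.05, 7 of the 24 members were higher and 7 lower, against 15.5% and 17.6% of all genes tested. A fold rule with no test, a mean change over 2-fold whose sign both arrays share, was met by 6 higher members (25%) and 1 lower member (4.17%), against 4.83% higher and 2.85% lower over all genes. Both sides of this rule depended on the array: more genes passed with array 2 alone than with array 1 alone, as higher and as lower. With both arrays, 819 genes passed as higher and 483 as lower. With an offset of 50 it was 695 and 309 genes, and still 6 and 1 of the members. The median log2 ratio of the 24 members was -0.10, against -0.03 for all genes tested. On both arrays alike, 10 members (41.7%) had a ratio above 0 and 11 (45.8%) a ratio below 0, where all genes gave 37.8% and 43.3%. The ratio was larger in size on array 2 for 20 of the 24 members (83.3%), as it was for 75.2% of all genes tested.

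**Figure D1:**
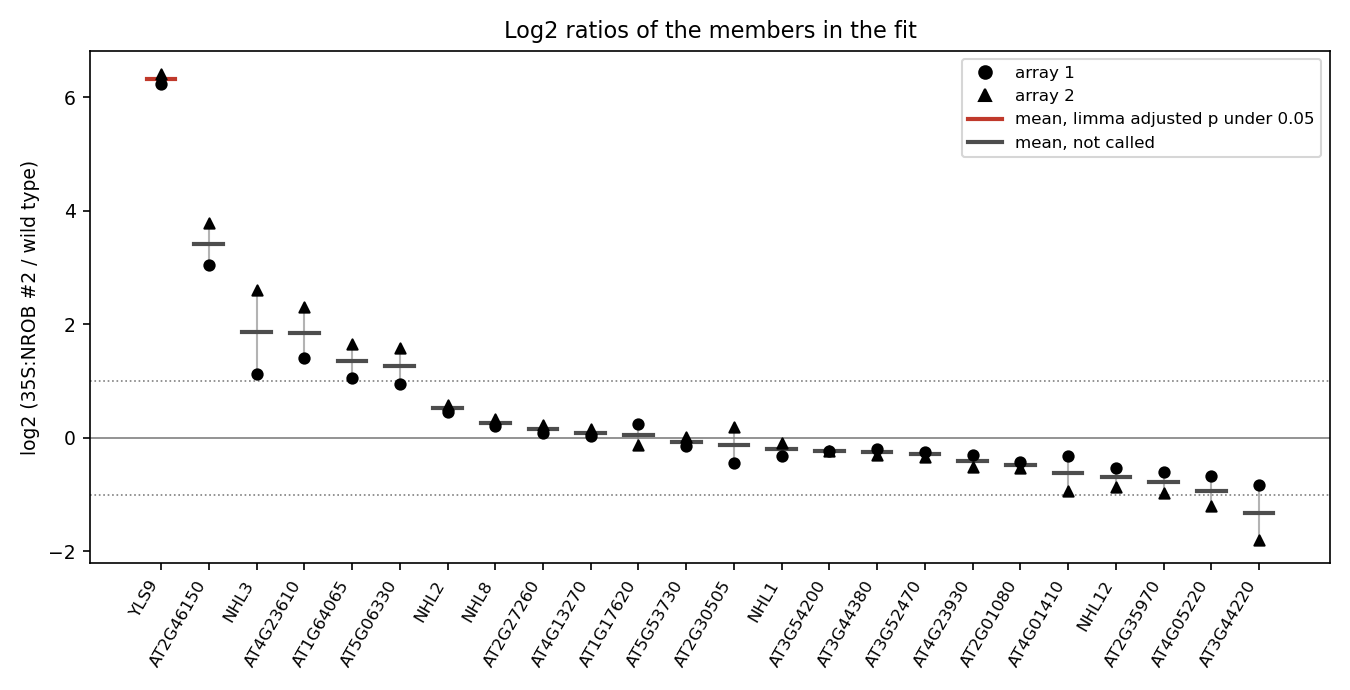
Log2 ratio of 35S:NROB #2 over wild type (vertical axis) for each of the 24 members in the fit, ordered by the mean of the 2 arrays. Circles are array 1, triangles array 2, bars their mean, and dotted lines a 2-fold difference. YLS9 stands at 6.32, and 17 members lie within the fold rule's limits.

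YLS9 (AT2G35980), also called NHL10, was described as a gene of yellowing leaves and is widely used as a reporter of elicitor responses. Its normalized intensity was 4724 and 8731 in 35S:NROB #2 leaves (arrays 1 and 2), against 62.8 and 103 in wild-type leaves. Both transgenic values lay far above both wild-type values, and the wild-type values stood above the lowest P-flagged intensities of that channel (28.0 and 25.4). YLS9 rose 79.9-fold, with a log2 ratio of 6.32 ± 0.12 (SD of 2 arrays; limma SE 0.12, adjusted p = 0.0244). Its ratio was nearly the same on both arrays (6.23 and 6.41), although the intensities of both genotypes were higher on array 2. Among all 16955 genes tested it ranked sixth from the top (rank 6).

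YLS9 lies on chromosome 2 beside other members of the family, and their log2 ratios were below 0. AT2G35970, the gene directly next to it, had intensities of 1105 and 1012 in 35S:NROB #2, against 1678 and 1978 in wild type. Its log2 ratio was -0.78 ± 0.26 (limma adjusted p = 0.0743). NHL12 (AT2G35960), which lies 3 gene places from YLS9, had 799.5 and 803 in 35S:NROB #2, against 1157 and 1457 in wild type, a log2 ratio of -0.70 ± 0.23 (limma adjusted p = 0.0785). In both genes all transgenic values were below all wild-type values, as in 30.1% of all genes tested, and neither passed the test. The log2 ratio of YLS9 exceeded that of AT2G35970 by 6.84 on array 1 and 7.37 on array 2. On the far side of YLS9 the next gene, LOG2 (AT2G35990), which encodes an enzyme of the cytokinin-activating LOG family, was flagged A on both arrays, with 35.0 and 8.05 in 35S:NROB #2, against 43.9 and 7.71 in wild type. EDA12, EMB3114, E2F3 and AT2G36026, the other genes within 5 places that entered the fit, had log2 ratios from -0.70 to -0.09.

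**Figure D2:**
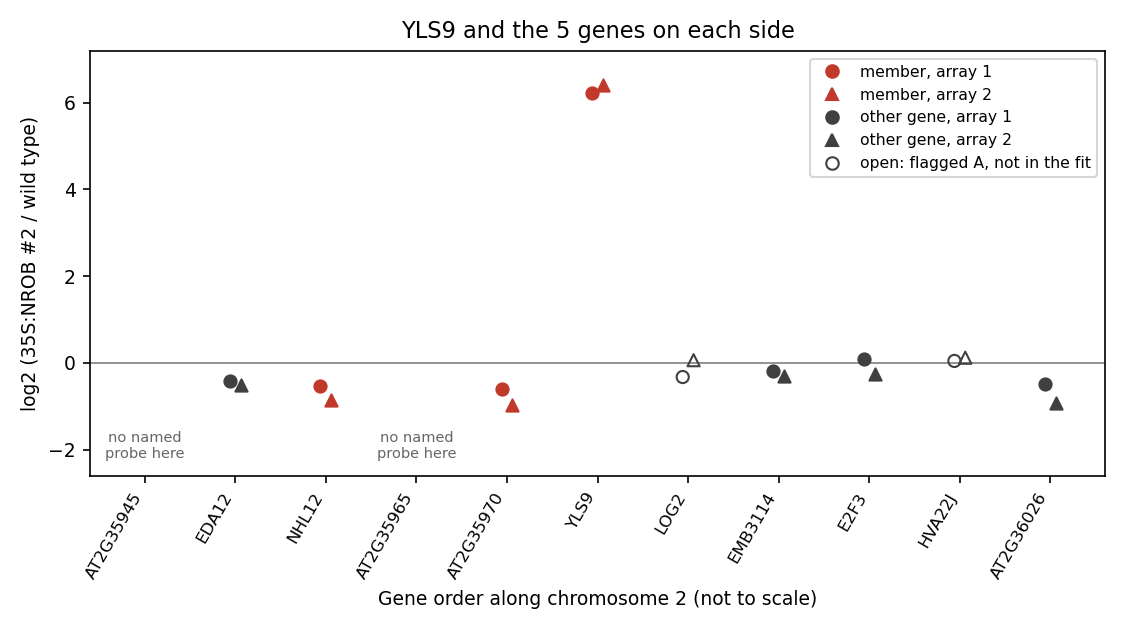
Log2 ratio of 35S:NROB #2 over wild type (vertical axis) for YLS9 and the 5 genes on each side, in gene order (not to scale). Circles are array 1, triangles array 2, red symbols family members, open symbols genes flagged A. YLS9 stands above 6 on both arrays while every other gene with a named probe lies between -0.97 and 0.12.

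AT2G46150, a member with no further name in the sources used here, was next in size among the members in the fit. It had 289 and 449 in 35S:NROB #2, against 34.9 and 32.6 in wild type, and the groups did not overlap, as in 23.2% of all genes tested (higher). Its log2 ratio was 3.42 ± 0.52, a 10.7-fold difference, and its limma adjusted p of 0.0517 missed the threshold. The wild-type values lay close to the lowest P-flagged intensities, so the size is uncertain: once 50 was added to all intensities, the log2 ratio was 2.295 and the gene was called (adjusted p = 0.0407). The other probe of AT2G46150 gave a log2 ratio of 3.09 ± 0.50.

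NHL3 (AT5G06320) encodes a plasma membrane protein known from resistance to Pseudomonas syringae. It had 40325 and 61786 in 35S:NROB #2, against 18440 and 10190 in wild type. The groups did not overlap, as in 23.2% of all genes tested (higher), and the wild-type value was the one that was lower on array 2. Its log2 ratio was 1.13 on array 1 and 2.60 on array 2, with a mean of 1.86 ± 1.04 (limma adjusted p = 0.0822). The dimmer probe of NHL3 gave a smaller mean, 1.18 ± 0.75. Its near neighbour AT5G06330, a member 2 gene places away, had 211 and 520 in 35S:NROB #2, against 110 and 173 in wild type, a log2 ratio of 1.27 ± 0.45 (limma adjusted p = 0.0651). This pair lay on the same side, unlike the block around YLS9.

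A pair of further members, neither with a further name here, passed the fold rule as higher. AT4G23610 had 1006 and 1189 in 35S:NROB #2, against 381 and 241 in wild type, with a log2 ratio of 1.85 ± 0.64 (limma adjusted p = 0.0613). AT1G64065 had 330 and 403 in 35S:NROB #2, against 158 and 128 in wild type, with a log2 ratio of 1.36 ± 0.42 (limma adjusted p = 0.0613). In both, every transgenic value exceeded every wild-type value, as in 23.2% of all genes tested. As with NHL3, the transgenic value was higher and the wild-type value lower on array 2 than on array 1.

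Another 14 members fell outside the fit because a spot was not flagged P on both arrays, and these included large differences. With no flag filter, 9 of 38 members and 1678 of 26374 genes passed the fold rule as higher. In the fit it was 6 of 24 members and 819 of 16955 genes. NHL25 (AT5G36970), known from responses to salicylate and to avirulent bacteria, had 347 and 656 in 35S:NROB #2, against 6.94 and 5.99 in wild type. The wild-type spots were as dim as the array's dark corner spots in that channel (8.502 and 8.94), so only a bound can be given. Set against the lowest P-flagged wild-type intensity of each array, NHL25 was at least 17.9-fold higher in 35S:NROB #2; against a stricter floor, the highest dimmer channel of A-flagged spots (50.1 and 66.0, chosen after seeing the data), it was at least 8.30-fold higher. AT4G35170 had 143 and 364 in 35S:NROB #2, against 13.5 and 20.4 in wild type, and was at least 8.55-fold higher on the same footing, or 3.97-fold with the stricter floor. Its dimmer probe was flagged A as well, with 11.6 and 23.3 in 35S:NROB #2, against 6.80 and 6.99 in wild type, all near background. With no flag filter, limma called the brighter probe of NHL25 (adjusted p = 0.0202) and of AT4G35170 (adjusted p = 0.0225), on ratios whose wild-type side is background.

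AT2G27080 was split between the arrays. It had 60.2 and 80.3 in 35S:NROB #2, against 59.8 and 7.37 in wild type, so that its log2 ratio was 0.01 on array 1 and 3.45 on array 2. A single wild-type spot, measured on 1 of the 2 arrays, sets its mean of 1.73. Of the other members outside the fit, 7 lay below the lowest P-flagged intensity in all channels, at 6.21 to 24.8, and no ratio can be read from them. NHL22 (AT4G09590) was among these. AT2G35460 and AT2G44000 exceeded that level in wild type on 1 array, and in no other channel, and allowed no bound above 1.

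**Figure D3:**
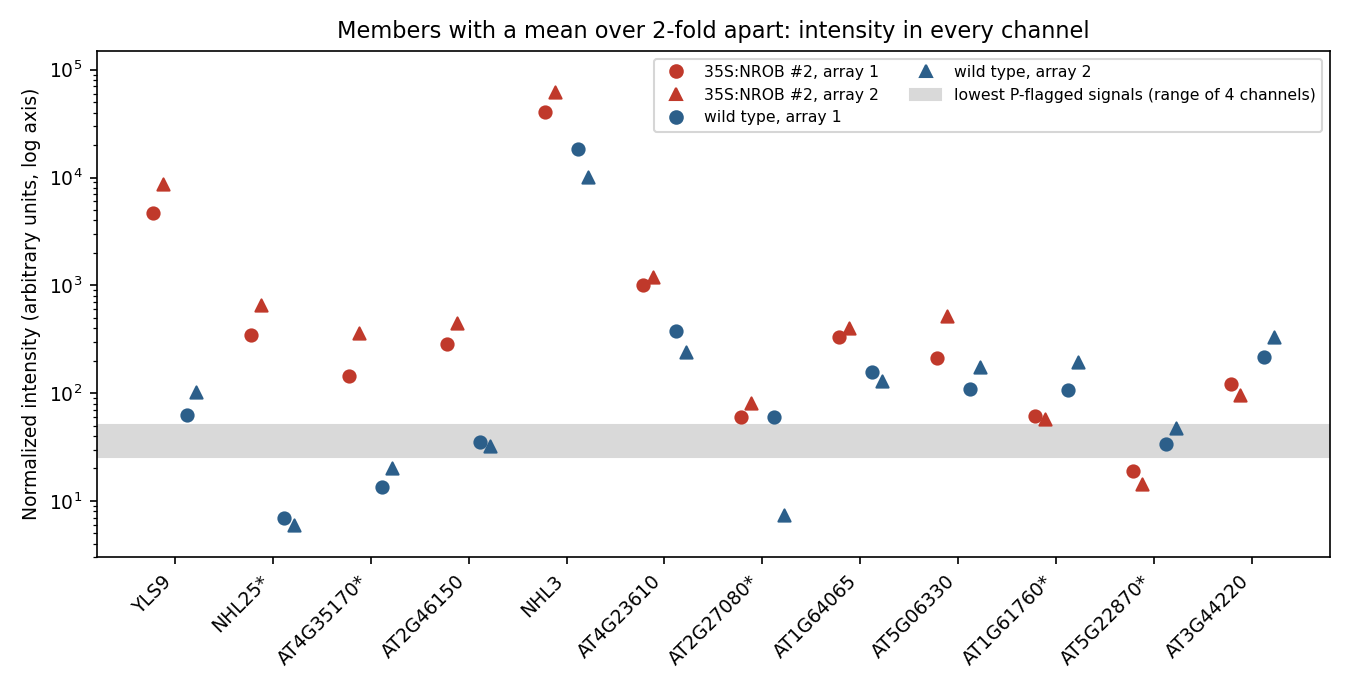
Normalized intensity (vertical log axis, arbitrary units) in every channel for the 12 members whose mean differed by over 2-fold with the same sign on both arrays. Red is 35S:NROB #2, blue wild type, circles array 1, triangles array 2; an asterisk marks genes outside the fit, and the grey band spans the lowest P-flagged intensities of the 4 channels. The wild-type spots of NHL25 and AT4G35170 lie below the band on both arrays.

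Lower members were fewer among the large differences. AT3G44220, a member with no further name here, had 122 and 96.2 in 35S:NROB #2, against 219 and 335 in wild type. Its log2 ratio was -1.32 ± 0.68 (limma adjusted p = 0.0799), and the groups did not overlap, as in 30.1% of all genes tested (lower). AT1G61760, flagged P on array 1 only, had 61.7 and 57.1 in 35S:NROB #2, against 107 and 194 in wild type, with a log2 ratio of -1.27 ± 0.69 (limma adjusted p = 0.103 when a P flag on either array was enough). AT5G22870 was flagged A on both arrays, with 18.8 and 14.4 in 35S:NROB #2, against 33.9 and 47.9 in wild type. No bound above 1 could be set for AT5G22870, since its wild-type values were below the lowest P-flagged intensities of the transgenic channel (35.1 and 51.0).

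The remaining members with an NHL number differed little. NHL2 (AT3G11650), whose overexpression is known to raise defence gene expression, had 1836 and 1834 in 35S:NROB #2, against 1337 and 1224 in wild type, with a log2 ratio of 0.52 ± 0.09 (limma adjusted p = 0.0863). NHL1 (AT3G11660), the gene beside it, had 4402 and 5737 in 35S:NROB #2, against 5469 and 6079 in wild type, so that the groups overlapped. Its log2 ratio was -0.20 ± 0.16 (limma adjusted p = 0.334), and its other probe stood at -0.14. The log2 ratio of NHL2 exceeded that of NHL1 by 0.77 on array 1 and 0.67 on array 2. NHL8 (AT1G32340) stood at 0.26 ± 0.09 (limma adjusted p = 0.209). NHL26 (AT5G53730), known from sugar export in the phloem, had 1248 and 1692 in 35S:NROB #2, against 1379 and 1684 in wild type, with a log2 ratio of -0.07 ± 0.11 (limma adjusted p = 0.712).

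The other 11 members in the fit had mean log2 ratios from -0.93 to 0.16 and limma adjusted p values from 0.0751 to 0.808. Of these, 7 were lower and 2 higher on both arrays, and 2 had opposite signs. Over the 24 members in the fit, the intensities of the genotypes did not overlap in 8 genes as higher (33.3%) and in 10 as lower (41.7%), against 23.2% and 30.1% of all genes tested.

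Another 3 genes on the array had "(LEA)" set inside the same description and so were not members by the rule. AT1G65690 had 3950 and 6983 in 35S:NROB #2, against 349 and 232 in wild type, an 18.5-fold difference (log2 ratio 4.21 ± 1.00, limma adjusted p = 0.0517). AT4G26490 stood at -0.56 ± 0.16 (limma adjusted p = 0.0869), and AT3G05975 was at background. Only YLS9 among the members in the fit had a larger mean ratio than AT1G65690.

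Genes listed as partners of NDR1 or of the RIN4 complex showed differences under 2-fold. Of 10 such genes, 0 passed limma and 0 the fold rule. Their median log2 ratio was 0.24, against a median of -0.03 and an upper quartile of 0.22 for all genes tested. RIN4, the NDR1-binding protein that several receptors guard, stood at 0.07 ± 0.13 (limma adjusted p = 0.734). The plasma membrane proton pump gene AHA2 (listed as HA2) stood at 0.62 ± 0.02, the receptor gene RPS2 at 0.53 ± 0.06, and RIPK, a kinase of RIN4, at 0.44 ± 0.12. None of these 3 passed the test (limma adjusted p = 0.0724, 0.0818 and 0.109).

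Early elicitor markers, which are often assayed beside YLS9, had a median log2 ratio of 1.715 over the 8 of 9 genes in the fit. Of these, 5 passed the fold rule as higher and 0 as lower, against 4.83% and 2.85% of all genes tested, and 0 passed limma. Among the 5, CYP81F2 stood at 1.78 ± 0.87 (limma adjusted p = 0.0753). WRKY40, also among the 5, had log2 ratios of 0.42 and 2.88 (arrays 1 and 2, limma adjusted p = 0.178). Its wild-type intensity was 1642 on array 1 and 315 on array 2. WRKY33, at 0.9998, fell just short of the rule. WRKY29 stood at -0.05 (limma adjusted p = 0.7997). CAF1a had log2 ratios of -0.35 and 1.40 (arrays 1 and 2), and PHI-1, outside the fit, had -0.32 and 1.84. The receptor kinase gene FRK1 had 2091 and 3644 in 35S:NROB #2, against 141 and 67.1 in wild type (4.82 ± 1.33, limma adjusted p = 0.0521). WRKY53, a transcription factor gene, had 1429 and 1890 in 35S:NROB #2, against 535 and 234 in wild type (2.22 ± 1.13, limma adjusted p = 0.0761). The zinc finger gene ZAT12 (listed as RHL41) had 6543 and 9528 in 35S:NROB #2, against 3357 and 290 in wild type, with log2 ratios of 0.96 and 5.04 (arrays 1 and 2; limma adjusted p = 0.154). In FRK1, WRKY53 and ZAT12, as in NHL3, AT4G23610 and AT1G64065, wild-type intensity was lower on array 2 than on array 1. In YLS9 it was not. The part of this difference between the wild-type samples in the ratios was not tested.

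The other yellow-leaf-specific genes gave smaller values than YLS9. Of 5 such genes, 1 passed the fold rule and 0 passed limma, with a median log2 ratio of 0.44. YLS5 had 6172 and 10322 in 35S:NROB #2, against 1584 and 1414 in wild type (2.42 ± 0.64, limma adjusted p = 0.0535). YLS2 and YLS7 both stood at 0.44, and the remaining genes of that list, YLS8 and YLS4 (listed as ASP3), stood at 0.23 and 0.17.

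Other LEA genes were listed where a probe description named late embryogenesis abundant, and most were outside the fit, with 8 of 41 in it. LEA genes described in other words are not in this list. LEA14 (AT1G01470) is such a gene, and stood at -0.71 in the fit (limma adjusted p = 0.0651). The 41 include AT1G65690, AT4G26490 and AT3G05975, whose description carries the family's wording with "(LEA)" inserted, and the list of hydroxyproline-rich genes given next holds the same 3. Their median log2 ratio was 0.05; 0 passed limma, and 1, the gene AT1G65690 given above, passed the fold rule. LEA3 (AT1G02820) had 261 and 280 in 35S:NROB #2, against 451 and 646 in wild type (-0.998 ± 0.29, limma adjusted p = 0.0639), and AT2G23120 stood at -0.82 (limma adjusted p = 0.0774). On the higher side, AT2G46140 stood at 0.81 (limma adjusted p = 0.0613) and AT5G53820 at 0.73 (limma adjusted p = 0.0740). Hydroxyproline-rich glycoprotein genes outside the member rule had a median of -0.15 over 30 of 59 genes, with 1 higher (AT1G65690 again) and 2 lower past the fold rule and 0 limma calls. The 2 lower genes were AT1G70985 and AT3G02120, at -1.23 and -1.10. Genes of both lists outside the fit also differed, and no bounds were computed for them. AT1G61080, flagged A on both arrays, had 66.8 and 129 in 35S:NROB #2, against 7.65 and 8.25 in wild type. AT2G03850, AT2G23110 and AT5G51680, also flagged A, likewise exceeded the lowest P-flagged intensities in 35S:NROB #2 only. AT4G36600, flagged A, went the other way, with 34.4 and 8.56 in 35S:NROB #2, against 68.9 and 28.4 in wild type.

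**Figure D4:**
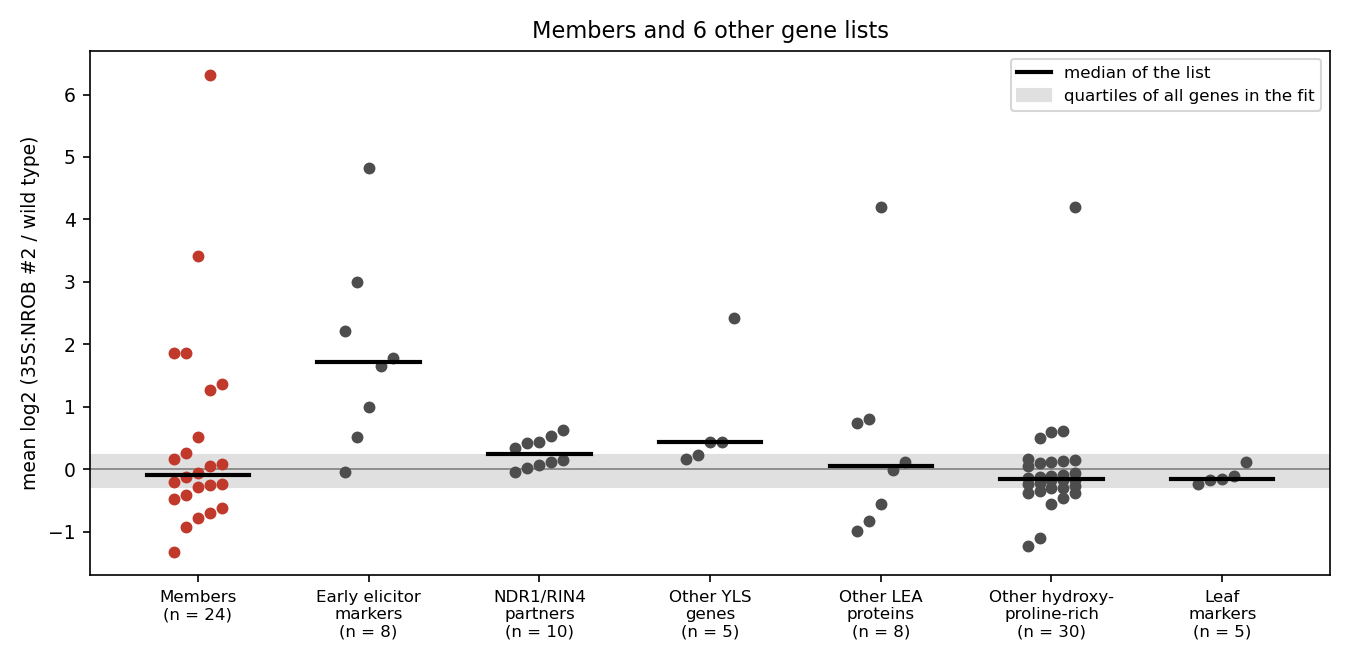
Mean log2 ratio of 35S:NROB #2 over wild type (vertical axis) for the genes of each list in the fit, 1 point a gene, with the list's median as a bar and the quartiles of all genes as a grey band (-0.29 to 0.22). The members' median of -0.10 lies inside the band, with YLS9 at 6.32 far above it, and AT1G65690 appears in both of the lists that hold it.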

How the data were processed

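Per the labels' protocols, amplified and labelled total RNA was hybridised to 2 two-colour arrays. The submitters' processing notes name Agilent Feature Extraction 8.5.1.1. Per the file headers, the deposited table holds a normalized intensity per channel, a log2 ratio with wild type on top, and a flag per spot and array; how the authors normalized is not stated in the labels or headers. The deposited log2 ratio equals that of the channels within 9.62e-07, which also settled which column of array 2 is wild type. Signs were turned so that 35S:NROB #2 is on top. The meaning of the flags was inferred from the values.

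Of 43603 gene probes, 6916 had no locus in the reference table (TAIR10.1, for names and gene order only) and were left out. Each gene took the probe with the highest mean intensity among probes flagged P on both arrays, which for every member in the fit was also its brightest probe. The 16955 genes were fitted with limma 3.58.1 in R 4.3.3 (intercept on the 2 log2 ratios, eBayes, 1 residual and 2.71 prior degrees of freedom), with Benjamini-Hochberg adjustment over all of them. The fit was also run on simulated ratios with normal noise of equal spread on both arrays. That simulation held no dye effect, no background and no difference between arrays, so it does not bear on those limits. Precision is limited by there being 2 arrays. Probe sequences were not used here, so cross-hybridisation between similar members was not tested, and protein and promoter features were not computed.

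The pairing of the channels comes from their shared array and is part of the fit. A bound takes, per array, the higher of the lowest P-flagged intensity in the dim channel and the probe's own value. Genes were named where they were called, passed the fold rule, had an NHL number, lay within 5 gene places of YLS9 as members or directly beside it, or had a bound over 2-fold, with up to 3 genes for each other list. RIN4, AT2G46140, AT5G53820, AT4G26490, AT3G05975, AT2G35460, AT2G44000, YLS4, YLS8 and the other neighbours of YLS9 were added after their values were seen. So were WRKY29, WRKY33, WRKY40, CYP81F2, CAF1a, PHI-1, LEA14, AT1G61080, AT2G03850, AT2G23110, AT5G51680 and AT4G36600. The members and lists were chosen with earlier results of these data known. Python 3.11.15, pandas 2.3.3 and matplotlib 3.10.9 were used.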

Additional observations from a re-analysis of the deposited data

Results flagged for a closer look

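Signal outside the fit appeared for 2 members that were flagged A on both arrays. Large ratios outside the fit were not limited to this family. With all gene probes, 1678 of 26374 genes passed the fold rule as higher, against 819 of 16955 in the fit. NHL25 was bright in both 35S:NROB #2 samples and at background in both wild-type samples, at least 17.9-fold higher in 35S:NROB #2, or at least 8.30-fold with the stricter floor. AT4G35170 was at least 8.55-fold higher in 35S:NROB #2, or 3.97-fold with the stricter floor, and its dimmer probe was near background in both genotypes.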

How the results depend on the processing

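YLS9 was called as higher in all 9 alternatives that kept the pairing of channels and gave a test, with log2 ratios from 5.62 to 6.37 and adjusted p values from 0.00701 to 0.0394. The number of members called as higher was 1 as reported, and 2 after median centring, 2 after quantile normalization, 2 with probes averaged per gene, 3 with an offset of 50, 4 with an intensity trend in eBayes, 5 after loess and 5 with all gene probes; it was 6, with 4 lower, with no replicate block, where the 4 channels were fitted as separate samples. Over all genes, the 40 higher and 2 lower calls became 461 and 147 (median centring), 504 and 230 (quantile), 462 and 148 (mean of probes), 521 and 212 (offset), 618 and 303 (trend), 932 and 518 (loess), 1070 and 418 (all gene probes), 234 and 86 (lower quartile of intensity left out), 24 and 1 (P on at least 1 array), and 1474 and 1468 (no replicate block). AT2G46150 was called in 7 of 8 alternatives that kept the pairing, AT4G23610 in 4 of 9, AT1G64065 in 2 of 8, AT5G06330 in 1 of 8 and NHL3 in 0 of 9; the cause was not tested. The series matrix holds the same values within 5.38e-06 and is not counted among these. Without the lower quartile of intensity, which removes genes by construction, 3 of 18 members were past the fold rule as higher and 0 as lower. Over all genes in that setting it was 466 higher and 244 lower of 12716. As lower, 2 of 26 members passed with P on at least 1 array, against 625 of 17678 genes. With all gene probes, where more members are tested, 3 of 38 members passed as lower, against 1126 of 26374 genes. The lower side also differed between the arrays taken alone. The members' median lay between -0.13 and -0.05 in the alternatives with both arrays. No member named from the fit changed its direction in any alternative with both arrays; the direction of members outside the fit was not examined under the other scalings. A stricter floor, the highest dimmer channel of A-flagged spots (50.1 and 66.0), chosen after seeing the data, lowered the bounds to 8.30-fold for NHL25 and 3.97-fold for AT4G35170. Signal close to background limits what can be said of the 14 members outside the fit.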
